A study of Sus scrofa with 8 samples.

Results

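Carbonic anhydrases catalyse the reversible hydration of carbon dioxide to bicarbonate and a proton. In the pancreatic duct, the cytosolic enzymes supply bicarbonate to the transporters that alkalinise pancreatic juice, and membrane-bound forms act on the outer face of the cell. The family also holds related proteins that have lost the catalytic activity but keep the fold.

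The genes described are CA1, CA2, CA4, CA8, CA9, CA11, CA12 and CA13, 8 of the 30282 genes in the deposited count table, chosen by name and grouped by where the protein sits: cytosolic (CA1, CA2, CA8, CA13), membrane (CA4, CA9, CA12) and secreted (CA11). Each had 1 gene identifier in the table, and all 8 passed the filter on low counts that left 14475 genes for testing. CA1 reached the level of that filter (10 counts at the median depth, in 4 libraries) in differentiation medium alone and CA11 in complete medium alone, while the other 6 reached it in both. They were measured by poly-A RNA-Seq in porcine pancreatic ductal organoids (PPDO), three-dimensional cultures grown in Cultrex, a basement membrane extract, from ducts picked by hand out of digested pig pancreas.

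There were 8 libraries from 4 organoid lines, each cultured for a week in complete medium and, separately, in differentiation medium. The lines came from an embryonic pig pancreas (Em), from a late postnatal one (LPN) and from early postnatal ones (EPN1 and EPN2), of wild-type or INS-eGFP pigs on a German landrace background. INS-eGFP pigs carry eGFP under the porcine insulin promoter, and which line came from which genotype is not given in the sources used here. Both media held the basal medium with N2, B27-vitamin A supplement, A83-01, Y-27632, nicotinamide and N-acetyl-L-cysteine. Complete medium also held prostaglandin E2, WNT3a, R-spondin1, noggin, FGF10, EGF and gastrin, which differentiation medium lacked. For maintaining the organoids, the paper names an L-WRN conditioned medium supplement in place of WNT3a, R-spondin1 and noggin. Libraries held 40553593 to 47910657 counts. A count of 3, used as the floor of detection, corresponded to 0.0619 to 0.0731 counts per 1000000 counts (CPM) after TMM scaling, the scale of every level below. Levels of single genes are compared between media and lines and not with each other, since transcript lengths were not available. Summed levels of marker lists weight each gene by its unknown length and are given only to set libraries side by side.

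The duct identity of the cultures was read from 8 markers in the table. None of them passed the edgeR test between media, where 6.97% of all genes tested did. With the line as a block CDH1, the epithelial cadherin, passed (edgeR adjusted p = 0.0172, higher in 4 of 4 lines), where 19.9% of all genes tested did. The summed level of these markers in complete medium ran from 6571 to 9112 CPM. In differentiation medium it was 14138 CPM in Em, 5469 in LPN, 9792 in EPN1 and 3823 in EPN2. EPN2 in differentiation medium had the lowest KRT7 (522 CPM), KRT8 (425), KRT18 (45.2) and CFTR (2.97) of the 8 libraries, and also the lowest EPCAM (228). Its CDH1 (2503 CPM) lay above all 4 libraries in complete medium, and its SOX9 (74.3 CPM) above 4 of the other 7 libraries. KRT7, KRT8 and KRT18 are keratins of simple epithelia, and CFTR is the apical chloride and bicarbonate channel of duct cells. In bulk RNA fewer cells of a type and less RNA per cell cannot be told apart.

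Between the media, 4 of the 8 genes passed edgeR's quasi-likelihood test at an adjusted p-value (Benjamini-Hochberg over all genes tested) under 0.05. CA1 and CA2 rose in differentiation medium, where 2.87% of all genes tested rose, and CA9 and CA11 fell, where 4.10% fell (6.97% in both directions). For the same 4 genes, the 4 values in one medium all lay above the 4 in the other, which held for 18.8% of all genes tested (8.82% higher and 9.96% lower in differentiation medium). With the line entered as a block the same 2 rose and the same 2 fell, where 9.48% of all genes rose and 10.4% fell (19.9% in both directions). CA1 and CA11 entered the test through the medium in which they were high, so their calls are given as a description. Of the 6 genes that reached the filter in both media, CA2 rose and CA9 fell. None of the 8 passed in edgeR when the Em, the LPN or the EPN1 line was left out, where 1.03%, 0.0346% and 0.00% of all genes tested did. In these fits 4 or 5 of the 8 had an unadjusted p under 0.05, as had 23.7%, 16.3% and 15.3% of all genes. Without EPN2 in differentiation medium the 4 calls stayed (edgeR adjusted p = 0.0162 for CA2 and 0.0478 for CA9), and the log2 fold change was 4.15 for CA2, 3.44 for CA4, -1.91 for CA12 and 0.52 for CA8. Without the whole EPN2 line CA1, CA2 and CA11 passed and CA9 did not (edgeR adjusted p = 0.0608), and the log2 fold change was 4.65 for CA2, 3.12 for CA4, -1.72 for CA12 and 0.88 for CA13. Without the Em line the values were smaller for CA2 (3.31), CA4 (2.11) and CA12 (-0.81), and without the EPN1 line CA13 was at 0.53. The remaining CA4, CA8, CA12 and CA13 overlapped between media. The median log2 fold change was 0.45 over the 8 genes and 0.01 over all genes tested. By form, and leaving aside CA1 and the secreted CA11 for the reason given, 1 of 3 cytosolic genes rose (CA2) and 1 of 3 membrane genes fell (CA9).

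**Figure D1:**
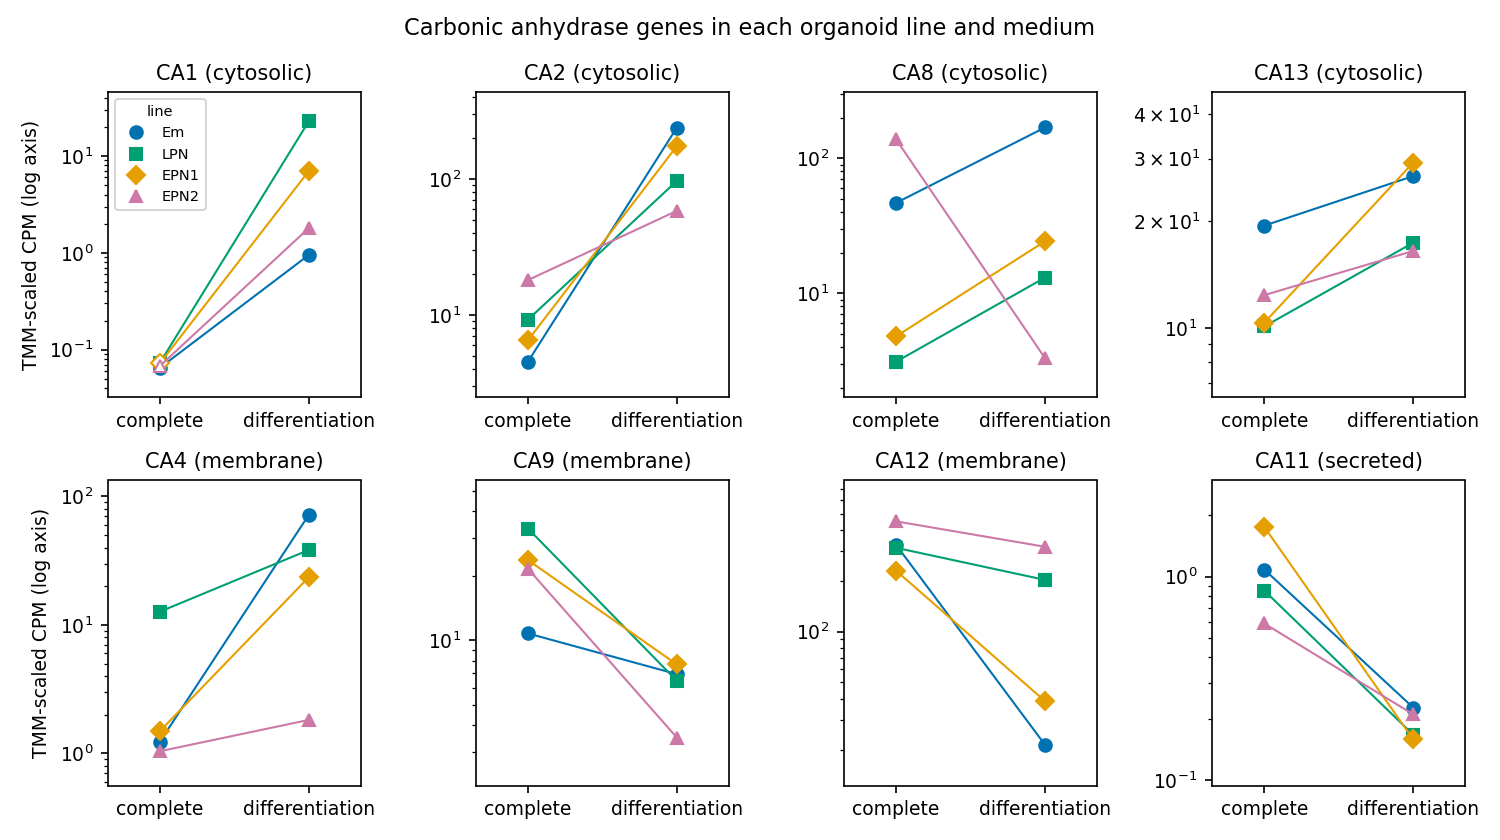
TMM-scaled CPM (log axis, a separate scale for each gene) of the 8 carbonic anhydrase genes in complete and differentiation medium; each symbol is 1 library, lines join the 2 media of an organoid line, and open symbols mark a count of 0 drawn at the floor of 3 counts. The media do not overlap for CA1, CA2, CA9 and CA11, and the EPN2 line of CA8 runs against the other 3.

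Among the cytosolic genes, CA2 encodes the highly active enzyme long used as a marker of pancreatic duct cells (ENSSSCG00000006140). In complete medium CA2 had 4.55 CPM in Em, 9.26 in LPN, 6.54 in EPN1 and 18.1 in EPN2. In differentiation medium CA2 had 240 CPM in Em, 97.2 in LPN, 175 in EPN1 and 58.5 in EPN2. All 4 libraries in differentiation medium were above all 4 in complete medium, and the order of the lines was inverted, with Em lowest in complete and highest in differentiation medium. The mean CA2 level went from 9.62 ± 5.98 CPM (SD, n = 4 lines) to 143 ± 80.9 CPM. The log2 fold change of CA2 was 3.89 (SE 0.60, edgeR adjusted p = 0.0167). The rise was 52.7-fold in Em, 26.8-fold in EPN1, 10.5-fold in LPN and 3.23-fold in EPN2. The call on CA2 was lost without LPN in complete medium (adjusted p = 0.0620), without EPN1 in complete medium (0.0599) and without EPN1 in differentiation medium (0.0600 in edgeR), while the log2 fold change stayed between 3.77 and 3.87 in these fits.

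CA1 encodes a cytosolic enzyme best known from red blood cells and the colonic epithelium (ENSSSCG00000040770). In complete medium CA1 had 3 counts in Em, 3 in LPN, 0 in EPN1 and 0 in EPN2, none of them above the floor. In differentiation medium it had 46 counts in Em (0.949 CPM), 1090 in LPN (22.8 CPM), 308 in EPN1 (6.97 CPM) and 77 in EPN2 (1.80 CPM). LPN was the highest and Em the lowest, 24.0-fold apart, and no library in differentiation medium was as low as any in complete medium. Summed over lines, 1521 counts stood against 6, a depth-adjusted ratio of 239 (exact 95% interval 110 to 653, counting error only). LPN held 1090 of the 1521 counts and 3 of the 6, so that this ratio is weighted towards LPN. Within lines the ratio of CA1 was 14.6 in Em (exact 95% interval 4.69 to 73.4) and 311 in LPN (106 to 1511). Against a floor of 3 counts per library, CA1 was at least 96.6-fold higher in EPN1 and at least 26.5-fold higher in EPN2. The edgeR adjusted p-value of CA1, which was tested only because of its counts in differentiation medium, was 0.0277. It passed 0.05 no longer without Em (0.0607), LPN (0.0782) or EPN1 (0.0831) in complete medium, or without LPN (0.0597) or EPN1 (0.0764) in differentiation medium.

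Markers of red blood cells, a known site of CA1, were near the floor throughout. Of 10 erythroid markers, 8 were in the table and 0 passed the filter on low counts. Their summed level was between 0.0226 and 0.240 CPM in the 8 libraries. HBB, the beta globin, was at 0 counts in every library, and AHSP, which chaperones alpha globin and had the most counts of them, reached at most 6. Of 11 names of absorptive colonocyte genes, 9 were in the table and 4 were tested. Of these 0 passed the edgeR test, where 2.87% of all genes tested rose and 4.10% fell. In the blocked fit 2 of the 4 rose, AQP8 and CDHR5, where 9.48% of all genes tested rose. AQP8, a water channel, had 0, 0.219, 0 and 5.09 CPM in complete medium (Em, LPN, EPN1, EPN2) and 0.681, 161, 20.2 and 352 CPM in differentiation medium. AQP8 was higher in all 4 lines, with an edgeR adjusted p = 0.114, or 0.0109 when the line was a block. In complete medium AQP8 did not reach the filter level in 4 libraries, being at 0 in Em and EPN1. It was thus tested through differentiation medium, where it was high, and its call with the block is given as a description. CDHR5, a protocadherin of the brush border, had an adjusted p = 0.0679 without and 0.0410 with the block in edgeR (3.92 ± 3.82 against 0.560 ± 0.199 CPM). KRT20, a keratin of differentiated intestinal epithelium, reached 49.0 CPM in Em and 13.4 in EPN1 in differentiation medium but 0.125 in LPN and 0.187 in EPN2 (adjusted p = 0.117 in edgeR). BEST4, a bestrophin anion channel, had an edgeR adjusted p = 0.0790. Of those not tested, SLC26A3 had at most 10 counts. MS4A12 had 2.19 CPM in Em in differentiation medium and at most 0.0240 CPM in any other library. In differentiation medium GUCA2B had 2.54, 4.07, 8.80 and 0 CPM and CLCA4 3.01, 0.0209, 1.40 and 1.17 CPM (Em, LPN, EPN1, EPN2). Both had at most 0.0721 CPM in complete medium. The order of the lines thus differed among these genes, with LPN highest for CA1, EPN2 for AQP8 and Em for KRT20 and CDHR5.

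CA8 encodes a related protein without catalytic activity that binds the inositol trisphosphate receptor (ENSSSCG00000006233; chromosome 4, 73047867 to 73172215 in Sscrofa11.1). In complete medium CA8 had 46.8 CPM in Em, 3.12 in LPN, 4.81 in EPN1 and 138 in EPN2. Differentiation medium gave 169 CPM in Em, 13.1 in LPN, 24.3 in EPN1 and 3.32 in EPN2. The level was 3.62-fold higher in Em, 4.20-fold higher in LPN and 5.06-fold higher in EPN1, and 41.6-fold lower in EPN2. The media overlapped fully, at 48.2 ± 63.2 CPM in complete medium against 52.5 ± 78.4 CPM (SD, n = 4). The log2 fold change of CA8 was 0.12 (95% interval -3.12 to 3.37, edgeR adjusted p = 0.966). Without EPN2 in differentiation medium it was 0.52 (adjusted p = 0.846), without the whole EPN2 line 1.92 (adjusted p = 0.399), and without Em in differentiation medium -1.83 (edgeR adjusted p = 0.420). Between the highest and the lowest line CA8 spanned 44.2-fold in complete and 51.1-fold in differentiation medium. The spread of its change between lines, 7.69 on the log2 scale, was larger than that of 99.8% of genes tested, whose median spread was 0.83. EPN2 in differentiation medium was also the library with the lowest KRT7, KRT8, KRT18 and CFTR, but not CDH1 or SOX9. CFTR had 85.2 CPM in EPN2 in complete medium against the 2.97 given above, and the part of this in the CA8 value was not tested.

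CA13, a catalytically active cytosolic enzyme, spanned 1.92-fold between lines in complete and 1.77-fold in differentiation medium (ENSSSCG00000006143). In complete medium CA13 had 19.4 CPM in Em, 10.1 in LPN, 10.3 in EPN1 and 12.4 in EPN2. Differentiation medium gave CA13 levels of 26.8 CPM in Em, 17.4 in LPN, 29.2 in EPN1 and 16.5 in EPN2. CA13 was higher in differentiation medium in 4 of 4 lines, which held for 23.9% of genes tested, but Em in complete medium lay above LPN and EPN2 in differentiation medium. The means were 13.1 ± 4.36 and 22.4 ± 6.47 CPM. The log2 fold change of CA13 was 0.78 (95% interval 0.11 to 1.45, edgeR adjusted p = 0.134). In the blocked fits the adjusted p-value of CA13 was 0.0574 in edgeR and 0.00563 in DESeq2, so that it passed in the latter.

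**Figure D2:**
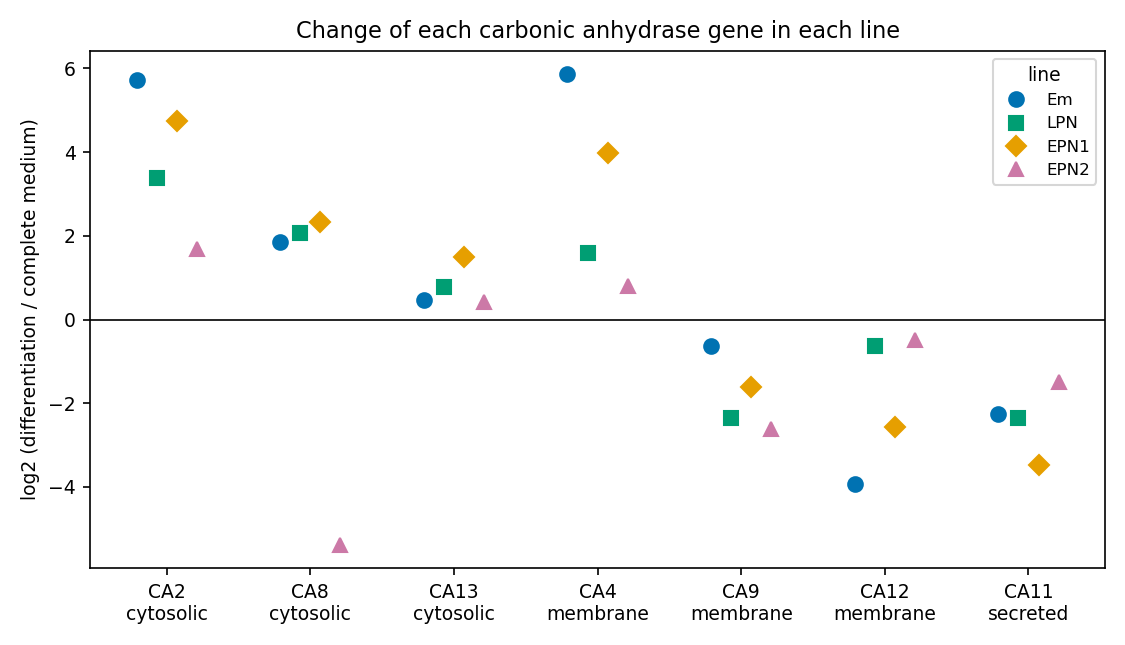
Log2 ratio of TMM-scaled CPM, differentiation over complete medium, for 7 carbonic anhydrase genes (horizontal axis, with the form of each protein) in each of the 4 lines (symbols); CA1 is left out because its counts in complete medium were at or under the floor. CA2, CA4 and CA13 lie above 0 and CA9, CA11 and CA12 below 0 in all 4 lines, and CA8 is at -5.38 in EPN2 against 1.85 to 2.34 in the other lines.

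Of the membrane genes, CA4 encodes an enzyme held at the cell surface by a lipid anchor (ENSSSCG00000023186; chromosome 12, 37962951 to 37972443 in Sscrofa11.1). In complete medium CA4 had 1.24 CPM in Em, 12.7 in LPN, 1.49 in EPN1 and 1.04 in EPN2. In differentiation medium it had 71.7 CPM in Em, 38.3 in LPN, 23.5 in EPN1 and 1.82 in EPN2. LPN stood above the other lines in complete medium and EPN2 below them in differentiation medium, and the media overlapped through these libraries. The level of CA4 was 58.1-fold higher in Em, 15.8-fold in EPN1, 3.02-fold in LPN and 1.75-fold in EPN2, the same order of lines as for CA2. The means were 4.11 ± 5.71 and 33.8 ± 29.4 CPM, with a log2 fold change of 3.04 (95% interval 0.26 to 5.82, edgeR adjusted p = 0.153). In DESeq2 the adjusted p-value of CA4 was 0.0228, and 0.000428 with lines blocked, so the call depended on the tool. Without LPN in complete medium, the log2 fold change in edgeR was 4.75 (adjusted p = 0.0936), and without Em in differentiation medium it was 2.37 (adjusted p = 0.253).

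CA9 encodes a transmembrane enzyme known as a target of the hypoxia-inducible factor (ENSSSCG00000051368; chromosome 1, 236393727 to 236400994 in Sscrofa11.1). The name is that of the deposited counts, and the position was matched by symbol. A separate reference of gene symbols held none for this identifier, where 7 of the 8 members had the same symbol. In complete medium CA9 had 10.7 CPM in Em, 33.2 in LPN, 23.7 in EPN1 and 21.5 in EPN2. In differentiation medium it had 6.93 CPM in Em, 6.45 in LPN, 7.70 in EPN1 and 3.50 in EPN2. The groups did not overlap, and the fall was smallest in Em (1.55-fold) and larger in EPN1 (3.07-fold), LPN (5.15-fold) and EPN2 (6.15-fold). The mean of CA9 went from 22.3 ± 9.22 to 6.15 ± 1.83 CPM (log2 fold change -1.86, SE 0.38, edgeR adjusted p = 0.0330). Its call was lost without LPN (0.0901) or EPN1 (0.0921) in complete medium and without Em (0.0604), LPN (0.0844) or EPN1 (0.0849) in differentiation medium.

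Beside CA9, a list of 16 genes of the hypoxia response was read, of which 14 were tested. Of these, 12 fell, where 4.10% of all genes tested fell, and 0 rose, with a median log2 fold change of -2.59 against 0.01 for all genes tested. Without the EPN1 line no gene of the table passed in edgeR, these included (15.3% of all genes had an unadjusted p under 0.05). In the blocked fit 11 fell, against 10.4% of all genes, KDM3A, a histone demethylase, being the exception (edgeR adjusted p = 0.0502). BNIP3, a mitophagy receptor, went from 907 ± 389 to 48.5 ± 13.8 CPM (log2 fold change -4.23, edgeR adjusted p = 0.00681). EGLN3, an oxygen-sensing prolyl hydroxylase, went from 896 ± 244 to 96.1 ± 33.2 CPM (adjusted p = 0.00568 in edgeR). VEGFA, the endothelial growth factor, went from 302 ± 156 to 34.9 ± 22.0 CPM (adjusted p = 0.0283 in edgeR). The list's log2 fold changes of ADM, a vasodilator peptide (-2.72, edgeR adjusted p = 0.0589), and PFKFB4, a regulator of glycolysis (-0.59, adjusted p = 0.434), did not pass.

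CA12 encodes a transmembrane enzyme with an extracellular active site (ENSSSCG00000004565; chromosome 1, 108649277 to 108710658 in Sscrofa11.1). In complete medium CA12 had 326 CPM in Em, 314 in LPN, 230 in EPN1 and 450.5 in EPN2, a 1.96-fold span. In differentiation medium it had 21.4 CPM in Em, 203 in LPN, 38.7 in EPN1 and 319 in EPN2, a 14.9-fold span. The lines thus separated into a pair at low and a pair at high level in differentiation medium only, and the media overlapped because EPN2 stayed high. The level was 15.3-fold lower in Em, 5.93-fold in EPN1, 1.55-fold in LPN and 1.41-fold in EPN2, so that it was lower in 4 of 4 lines, as were 24.2% of genes tested. The means were 330 ± 91.0 and 145 ± 141 CPM, with a log2 fold change of -1.18 (95% interval -2.96 to 0.60, edgeR adjusted p = 0.355). The blocked log2 fold change of CA12 was -1.87 (edgeR adjusted p = 0.101, DESeq2 adjusted p = 0.00634).

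The secreted gene, CA11, encodes another related protein without catalytic activity (ENSSSCG00000003147; chromosome 6, 53993183 to 53999357 in Sscrofa11.1). In complete medium CA11 had 50 counts in Em, 35 in LPN, 73 in EPN1 and 26 in EPN2, against 11, 8, 7 and 9 in differentiation medium. CA11 was tested through its counts in complete medium, since 1 of 4 libraries in differentiation medium reached the filter. The groups did not overlap, although every value was low, and the 4 libraries in differentiation medium lay within 1.43-fold of each other. On the CPM scale CA11 went from 1.07 ± 0.500 to 0.191 ± 0.0331 (log2 fold change -2.47, SE 0.43, edgeR adjusted p = 0.0213). Its call was lost without LPN (0.0627) or EPN1 (0.0610) in complete medium and without LPN (0.0698) or EPN1 (0.0816) in differentiation medium.

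**Figure D3:**
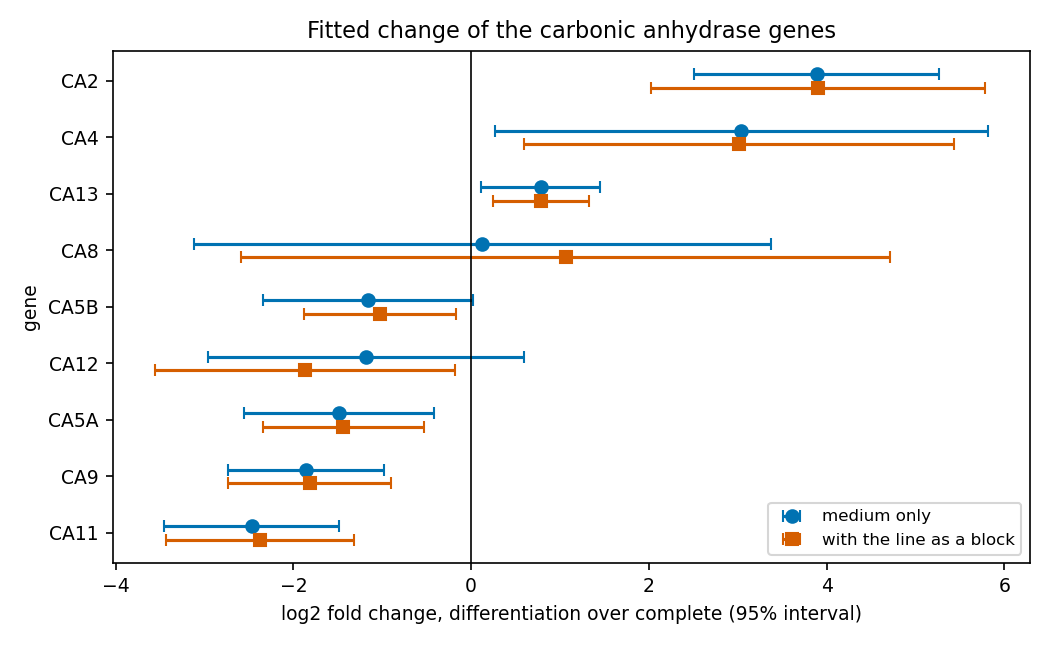
Log2 fold change between media with its 95% interval from edgeR for 7 of the 8 carbonic anhydrase genes and for CA5A and CA5B, in the fit with the medium alone (circles) and with the line as a block (squares); CA1 is left out because its fitted value depends on the prior count. The interval of CA8 spans 0 in both fits (-3.12 to 3.37 with the medium alone), and that of CA12 spans 0 only without the block.

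Differences among the 4 lines were tested with the medium held in the model. None of the 8 genes passed at an adjusted p under 0.05 in edgeR, the only tool run, where 5.14% of all genes tested did. At an unadjusted p under 0.05 the counts were 0 of the 8 and 4083 of the 14475 genes tested. The adjusted p-values of the line effect ran from 0.197 for CA1 to 0.962 for CA2. For CA8 it was 0.348, and 0.00910 without EPN2 in complete medium or 0.00787 without EPN2 in differentiation medium. Each line had only its 2 media as samples, so a change that differed between lines counted as error here and was not itself tested.

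The same values can be read as shares of each gene's variance over the 8 libraries on the log2 CPM scale. The medium took 86.8% for CA2 and 75.0% for CA9, against a median of 24.4% over all genes tested. The shares of CA1 (83.0%) and CA11 (87.5%) are not read against that median, since each reached the filter only in the medium where it was high. The line took 0.0999% for CA2 and 43.6% for CA8, with a median of 49.3% over all genes. CA8 left 56.1% to the remainder, the change that was not shared by the lines, where the median gene left 14.6%. CA4 (43.0% medium, 38.6% line) and CA12 (39.98% and 37.7%) divided more evenly, and CA13 had 52.9% with the medium.

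Few other carbonic anhydrase genes passed the filter on low counts. Of 8 further family names, 7 were in the table and 2 were tested, and 0 passed the edgeR test, where 6.97% of all genes tested did. CA5A, a mitochondrial enzyme, was at 0.891 ± 0.353 CPM in complete medium and lower in all 4 lines in differentiation medium, at 0.316 ± 0.112 CPM. Its log2 fold change was -1.49 (edgeR adjusted p = 0.0906), and -1.44 in the blocked fit (edgeR adjusted p = 0.0462), where it passed, as did 19.9% of all genes tested. CA5B, the other mitochondrial form, had 11.6 ± 6.84 and 5.16 ± 1.95 CPM (log2 fold change -1.16, edgeR adjusted p = 0.188). CA7, a cytosolic enzyme, had 0, 0, 0 and 6 counts in complete medium (Em, LPN, EPN1, EPN2) and 3, 4, 46 and 26 in differentiation medium. CA3, a cytosolic form of low activity found in muscle, had 3, 0, 6 and 1 counts and then 18, 7, 23 and 1. CA6, the salivary secreted enzyme, reached 1 count, CA10, a related protein without activity, 2 counts, and CA14, a transmembrane enzyme, 23 counts at most.

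Transporters and pumps that move bicarbonate, protons and lactate formed a list of 28 names, of which 27 were in the table and 22 were tested. Of these 0 rose and 1 fell in the edgeR fit with the medium alone, with a median log2 fold change of 0.10 against 0.01 over all genes tested, where 2.87% rose and 4.10% fell. These counts were near the background. The gene that fell was SLC16A3, the lactate exporter MCT4, from 120 ± 52.6 to 1.24 ± 0.934 CPM (log2 fold change -6.59, edgeR adjusted p = 0.00681). In the blocked fit 3 of the 22 rose and 1 fell, where 9.48% of all genes rose and 10.4% fell, and the members are given for their values. RHCG, an ammonia channel, had 0.0650, 55.7, 8.39 and 53.2 CPM in complete medium (Em, LPN, EPN1, EPN2) and 4.52, 715, 100 and 890 CPM in differentiation medium. RHCG was higher within every line although the media overlapped (edgeR adjusted p = 0.212 without and 0.00856 with the block). The others were ATP12A, a proton and potassium pump (edgeR adjusted p = 0.307 without and 0.0387 with the block), and SLC9A3R1, a scaffold protein of apical transporters (0.183 and 0.0477). In complete medium RHCG (0.0650 CPM in Em) and ATP12A (0.0217 CPM in Em) did not reach the filter level in 4 libraries. They were tested through differentiation medium, where they were high, so their calls are given as a description. For 2 of the 22, RHCG and SCTR, the secretin receptor, the line effect passed (line adjusted p = 0.0140 and 0.0456 in edgeR), where it did for 5.14% of all genes tested. SCTR was low in EPN2 in both media, at 2.76 and 0.631 CPM, and between 51.9 and 919 CPM in the other 6 libraries.

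Bicarbonate transporters of the duct were expressed without passing the test. SLC4A4, the sodium bicarbonate cotransporter, averaged 813 ± 348 CPM in complete medium and 580 ± 307 CPM after the change of medium (edgeR adjusted p = 0.569). SLC4A2, an anion exchanger, had 102 ± 13.0 and 93.3 ± 1.80 CPM (adjusted p = 0.504 in edgeR). CFTR had 338, 7.68, 30.6 and 85.2 CPM in complete medium (Em, LPN, EPN1, EPN2) and 128, 25.1, 84.6 and 2.97 CPM in differentiation medium. CFTR was lower in Em and EPN2 and higher in LPN and EPN1, with an edgeR adjusted p = 0.665.

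**Figure D4:**
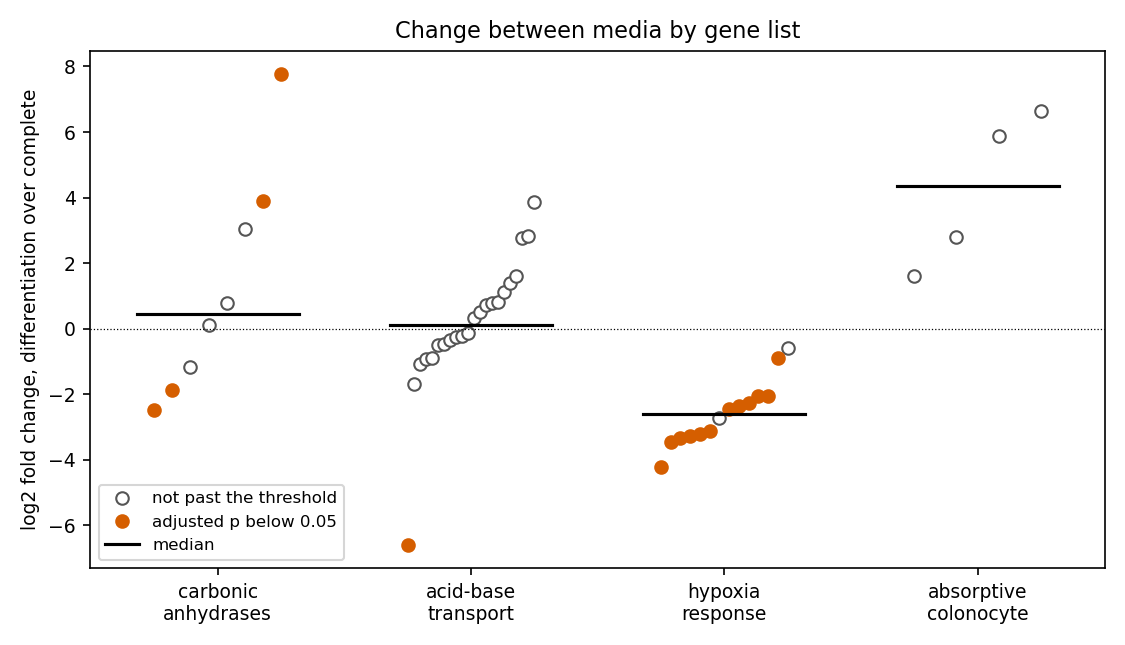
Log2 fold change between media from edgeR (vertical axis) of every tested gene in 4 lists, with filled points for an adjusted p under 0.05 and a bar at the list's median. The 8 carbonic anhydrase genes spread to both sides of 0, 12 of 14 hypoxia response genes are filled and below 0, and the points of CA1 and of the absorptive colonocyte genes near the floor in complete medium depend on the prior count.

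For each gene, the tested genes with the most similar profile over the 8 libraries were found by the root mean square (RMS) difference of centred log2 CPM among 11948 genes with a symbol. CA12 was nearest to SLC26A9, an epithelial chloride transporter, at an RMS difference of 0.43, where the RMS spread of CA12 itself was 1.51. SLC26A9 had 2.47, 5.48, 2.57 and 7.94 CPM in complete medium and 0.165, 2.94, 0.656 and 4.90 CPM in differentiation medium (Em, LPN, EPN1, EPN2), and in differentiation medium both SLC26A9 and CA12 were low in Em and EPN1. CA11 was near VWA5B2 (0.18), ENO1, the glycolytic enolase (0.22), and ERO1A, an oxidase of the endoplasmic reticulum (0.26). CA9 was nearest to SLC9A5, a sodium and proton exchanger (0.19), and CA13 to HIVEP1 (0.14).

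The nearest gene to CA2 was DAPK2, a calcium-dependent kinase (RMS difference 0.51). CA1 was nearest to HSD11B2, the enzyme that inactivates cortisol (0.77), with AQP3, a water and glycerol channel, among the 3 nearest (0.97). CA4 was nearest to CDON, a hedgehog co-receptor (0.97). CA8 was nearest to PTPRO, a receptor phosphatase (0.79), and NPPB, which encodes a natriuretic peptide (0.99). In log2 CPM, the values of CA1 in complete medium and of CA11 in differentiation medium rest on few counts and depend on the prior count. All these profiles share the same 8 libraries and are given as a description.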

How the data were processed

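RNA from each line was poly-A selected and sequenced, and the authors quantified transcripts with salmon (run through nf-core) on a Sus scrofa genome whose annotation they had customised. The submitters' processing notes, which cover other assays too, name the build Sscrofa11.1 among others. The deposited table held estimated counts (expected counts) for 56060 rows; 78.7% of values above 0 were whole, and although the methods name counts scaled by gene length for the differential test, whether this table, deposited as raw counts, is that output could not be settled. Rows of a gene, extended or isoform ones included, were summed (30282 genes, 5612 without a count) and rounded. Extended rows held at most 7.60% of a member's counts (CA13). 8 transgene rows (0.00142% of counts) were left out. Media were taken from the sample titles and the study's methods, since the treatment label was the same for all 8 samples, and lines from the column names, which could not be matched to replicate numbers.

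edgeR 4.0.16 (R 4.3.3) was fitted to the whole table with filterByExpr, TMM (factors 0.935 to 1.06), the quasi-likelihood test and Benjamini-Hochberg adjustment. Both libraries of a line share its origin, and their deviations from the medium means correlated (r = 0.400 to 0.657 in 4 pairs, -0.479 to 0.242 in the 12 others), so that the line was the block in the paired fit. Alternatives were this block, DESeq2 1.42.0, other scaling and filters, no extended rows, and each library or line left out. Intervals and floors cover counting error only unless they come from edgeR. The fits were also run on simulated counts, which for the medium test were drawn without differences between lines. That run thus does not show how the medium fit behaves with the line differences of these data.

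All 8 genes and every other family name in the table were named. Of each list, genes past the threshold and up to 6 others of high mean could be named, with the 3 nearest genes per member. Members, lists and markers were chosen with earlier results of these data known. Positions are from the RefSeq annotation of Sscrofa11.1, matched by symbol for 5 of 8 members; protein and promoter sequences were not analysed here. Markers of stromal, acinar, endocrine, endothelial and immune cells are given in the closing section.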

Additional observations from a re-analysis of the deposited data

Results flagged for a closer look

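In a set of 23 groups of 4 values, 3 held a value far from the other 3 by Dixon's criterion. Chance reaches it in about 1 group in 20 when values are normally distributed. Levels were compared as CPM and not on a log scale, and a flag on them depends on that scale. CA4 in complete medium was 12.7 CPM in LPN, where the other lines had 1.04 to 1.49 CPM. CA8 in differentiation medium was 169 CPM in Em, where the other lines had 3.32 to 24.3 CPM. The log2 change of CA8 between media was -5.38 in EPN2 and 1.85 to 2.34 in the other lines. Whether the change of CA8 differed between lines could not be tested, with 1 library per line and medium.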

How the results depend on the processing

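The 4 calls among the 8 genes (CA1, CA2, CA9, CA11) held in edgeR with the line as a replicate block, in DESeq2, under other scaling, without the filter on low counts and without the extended rows. The block in edgeR changed no other member's call. Those of CA1 and CA11 are a description, since each reached the filter only in the medium where it was high. Of the 6 genes that reached it in both media, 2 were called (CA2 and CA9). The number of members past the threshold was 7 in DESeq2 with the block, where 34.7% of the 16164 genes given an adjusted p passed, and 0 to 4 when 1 library or line was left out. It was 0 without EPN1 in either medium, without LPN in complete medium, and without the Em, LPN or EPN1 line, with 4 to 5 members at an unadjusted p under 0.05 in edgeR, the only tool run on these subsets. Over all genes 1009 passed, 2884 with the block (edgeR), 2998 in DESeq2 (17.7% of 16893), 5608 in DESeq2 with the block and 506 without the filter. Leaving out a library or line gave 0 to 1207, the 0 being without the EPN1 line (edgeR; 2220 at an unadjusted p under 0.05). The line effect was called for 744 genes, 1163 without the filter and 24 to 969 with a library left out, and for 0 to 1 members. CA8, whose log2 fold change ran from -1.83 to 1.92 over these fits, changed sign without LPN (-0.27) or EPN1 (-0.23) in complete medium, without Em in differentiation medium (-1.83) and without the Em (-1.81) or EPN1 (-0.01) line. In DESeq2 with the block CA4 (0.000428), CA12 (0.00634) and CA13 (0.00563) passed, and CA4 also without it (0.0228). The causes were not tested. The count of 4 members without overlap became 4 to 6 with a line left out, a check chosen after seeing the data, where 22.8% to 36.2% of all genes tested did not overlap. At this depth CA1 in complete medium lay at or under the floor, and CA11 rested on at most 73 counts.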

Other observations

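Markers of other cell types were read in the same libraries. Those tested were 4 endothelial, 2 stromal, 2 acinar, 1 endocrine and 3 immune markers. Of these 0 passed between media in edgeR with the medium alone, where 6.97% of all genes tested did. Endocrine markers stood apart in Em, with a summed level of 21.3 CPM in differentiation medium and 2.40 CPM in complete medium. GCG, which encodes glucagon, had the most counts of them (17.2 and 2.01 CPM in Em) and was at 0 in the other 6 libraries. INS, which encodes insulin, had 68 counts in Em in differentiation medium and 0 elsewhere. Em in differentiation medium was also the library with the highest CA2, CA4 and CA8. Any link between the endocrine RNA and the carbonic anhydrase values of this library was not tested.

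Acinar markers summed to between 124 and 320 CPM, with CTRC, a chymotrypsin, having the most counts, while PNLIP, the pancreatic lipase, was at 0 in every library. CTRC went from 141 ± 13.5 to 264 ± 78.6 CPM (edgeR adjusted p = 0.0602). Stromal markers summed to 0.668 to 8.95 CPM, and their members went different ways. COL3A1, a fibrillar collagen, reached 5.03 CPM in Em and 6.07 in EPN1 in differentiation medium, with 0.167 in LPN and 0.0467 in EPN2 and at most 0.0487 in complete medium. COL1A2, another collagen, averaged 0.0509 ± 0.102 and 0.611 ± 0.779 CPM, and neither passed the filter on low counts. PDGFRB, a receptor of pericytes and fibroblasts, was lower in 4 of 4 lines (2.74 ± 1.85 and 0.383 ± 0.350 CPM, edgeR adjusted p = 0.121 without and 0.0160 with the line as a block). PDGFRB lay under the filter level (0.218 CPM) in EPN1 (0.204 CPM) and EPN2 (0.0234 CPM) in differentiation medium. It was thus tested through complete medium, where it was high, and its call in the blocked fit is given as a description. Endothelial markers summed to 16.2 to 44.8 CPM, and CDH5, the cadherin that defines endothelium, had at most 1 count. Other members were present, PECAM1, an adhesion molecule, at 7.96 to 17.6 CPM and KDR, a receptor of VEGF, at up to 33.9 CPM in Em in differentiation medium. TEK, the angiopoietin receptor, was higher in 4 of 4 lines without overlap, the highest in EPN1 (edgeR adjusted p = 0.0613). It had up to 0.108 CPM in complete medium and 0.280 to 12.4 CPM in differentiation medium. Since TEK reached the filter level (0.218 CPM) only in differentiation medium, its test and lack of overlap are given as a description. Immune markers summed to 8.05 to 94.6 CPM, with CD14 and CD68 having the most counts, and CD3E, of T cells, had at most 1 count. Among the duct markers, CDH1, the epithelial cadherin, was higher in 4 of 4 lines (1304 ± 416 and 2779 ± 838 CPM, edgeR adjusted p = 0.0646 without and 0.0172 with the line as a block).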
